A study of Mus musculus with 12 samples.

Results

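Lmcd1, Mab21l4, Fam210b, Arid3a and Dram1 are 5 genes with large rises under both TGFB1 and GDF11 in mammary spheroids. They were chosen by the size of those rises over serum-free medium on these same arrays, among genes outside the known SMAD target families. Their differences from serum-free medium are therefore a description and carry no test. The comparison of TGFB1 with GDF11 did not enter the choice and is tested. All 5 genes were among the 9134 genes that passed the detection filter, and they are read by 7 of the 25697 probes, 3 of them for Lmcd1 and 1 for each other gene. The array names Mab21l4 as 2310007B03Rik, Fam210b as 2010011I20Rik and Dram1 as 1200002N14Rik, which RefSeq lists as older names of these genes. Expression was read on 12 single-colour Illumina beadchips, 1 per sample, from spheroids of NMuMG, an established epithelial line from normal mouse mammary gland. Wells seeded with 5000 cells on Matrigel, a gel of basement membrane proteins, were kept for 6 days. For 4 h they then received 50 ng/mL of TGFB1 (4 samples), 250 ng/mL of GDF11 (4 samples) or serum-free medium with no ligand (4 samples). The labels call the samples biological replicates, each pooled from the RNA of 2 wells of this 1 line, and the ligand doses differ.

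TGFB1 and GDF11 are secreted dimers of the TGF-beta family. They bind pairs of serine/threonine kinase receptors, which phosphorylate SMAD2 and SMAD3, and these enter the nucleus with SMAD4 and change transcription together with other DNA-binding factors. Lmcd1 encodes a protein with LIM and cysteine-rich domains, known in mouse as a cofactor that restrains the DNA binding of GATA6. Mab21l4 belongs to the MAB21 family and is known from human epidermis as a gene of squamous differentiation. Fam210b encodes a mitochondrial membrane protein studied in erythroid cells. Arid3a encodes a DNA-binding protein with an AT-rich interaction domain, known as a partner of E2F1 and as an activator of immunoglobulin genes in B cells. Dram1 encodes a lysosomal membrane protein that promotes autophagy and is known in human cells as a p53 target.

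Mean raw intensity split the arrays into 2 sets. GDF11 replicate 1 and serum-free replicates 1, 2 and 4 lay between 149 and 165 scanner units and are called dim, and the other 8 arrays lay between 255 and 310.0 and are called bright. All 4 TGFB1 arrays were bright. A term for brightness in the fits below therefore rests on the GDF11 and serum-free groups. There GDF11 replicate 1 was the only dim array of its group and serum-free replicate 3 the only bright one. The RNA had the marks of epithelium: the keratin genes Krt8 and Krt18 and the cadherin gene Cdh1 were detected on all 12 arrays, and Epcam has no probe in the table. Of 26 marker genes of fibroblasts, endothelium, leukocytes and adipocytes, none was detected on more than 3 arrays and 16 were detected on none. Among luminal markers, Cldn3, Esr1 and Gata3 were detected on no array. Among basal markers, Krt5, Krt17, Trp63 and Myh11 were detected on none, and Krt14 and Acta2 on 10 arrays each. Krt8 (1.08), Krt18 (1.25) and Cdh1 (0.90) were higher with TGFB1 than in serum-free medium on the log2 scale (limma adjusted p = 0.00862, 0.00901 and 0.0123), but did not pass with a term for brightness (adjusted p = 0.0962, 0.194 and 0.285). Of the 8 luminal markers tested, 4 rose and 2 fell with TGFB1. Over all genes 15.7% were called as higher and 18.7% as lower. The falls were Krt19 (−0.59, limma adjusted p = 0.00134, and 0.003 with the term) and Foxa1 (−0.995, adjusted p = 0.0157, and 0.403 with the term). The remaining rise was that of Krt7 (1.46, limma adjusted p = 0.00204), which also passed with the term (0.67, adjusted p = 0.0104). Krt14 passed the test with TGFB1 against serum-free medium (log2 difference 1.02, limma adjusted p = 0.00666) and with that term (1.49). It was detected on 2 of 4 serum-free arrays. The part of these markers in the results for the 5 genes was not tested.

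The promoters of Lmcd1 and Mab21l4, the pair with the largest differences from serum-free medium, are shown because genes that move together can be read for shared letters. Each is the 250 bases before a transcript start in RefSeq (GRCm38.p6), read in the direction of the gene; a gene can have several starts, so a window can overlap another transcript of it. The Lmcd1 window is chr6:112273508-112273757 on the plus strand and the Mab21l4 window is chr1:93160949-93161198 on the minus strand. Capitals mark matches, on either strand, to 6 short motifs: CAGAC and GGCGC, which SMAD proteins bind, TGANTCA of AP-1, TGACGT of CREB and ATF factors, CACGTG of E-box factors and CATTCC of TEAD factors.
Lmcd1: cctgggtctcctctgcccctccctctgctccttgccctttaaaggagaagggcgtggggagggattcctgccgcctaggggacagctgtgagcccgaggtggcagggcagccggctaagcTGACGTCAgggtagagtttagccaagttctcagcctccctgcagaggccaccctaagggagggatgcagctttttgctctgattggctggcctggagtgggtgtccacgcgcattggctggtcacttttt
Mab21l4: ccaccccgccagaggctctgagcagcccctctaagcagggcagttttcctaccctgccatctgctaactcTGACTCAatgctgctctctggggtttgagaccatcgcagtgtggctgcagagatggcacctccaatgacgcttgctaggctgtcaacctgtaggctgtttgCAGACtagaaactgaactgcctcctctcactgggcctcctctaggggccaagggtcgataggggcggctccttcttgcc
The Lmcd1 window held TGACGT on both strands, overlapping, 123 to 130 bases before the start. TGACGT stood in 6.47% of the 32851 RefSeq promoter windows of that length. The Mab21l4 window held TGANTCA 174 to 180 bases before the start (6.75% of windows) and CAGAC 75 to 79 bases before it (42.2%). A second RefSeq start of Mab21l4 gave a window with CAGAC at 2 places and no TGANTCA. The Dram1 window held GGCGC once (32.0% of windows), and the Fam210b window held none of the 6 motifs. CACGTG (6.02%) and CATTCC (12.6%) were in none of the 4 genes' windows, and no motif was in the windows of more than 1 of these 4 genes. The promoter of Arid3a was not analysed here.

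Lmcd1 had raw signals of 1196, 1169, 1197 and 1210.0 scanner units with TGFB1, 310.3, 878, 920.2 and 810.0 with GDF11, and 85.1, 85.9, 132 and 88.9 in serum-free medium, for replicates 1 to 4 in each group. All ligand arrays lay above all serum-free arrays, and the lowest GDF11 value came from the dim GDF11 replicate 1. In spheroids, a change in signal cannot be told apart from a change in the number of cells that express the gene. On the normalized log2 scale Lmcd1 averaged 9.73 ± 0.08 with TGFB1, 9.29 ± 0.18 with GDF11 and 5.14 ± 0.41 in serum-free medium (SD, n = 4 each). The TGFB1 mean was 24.1-fold and the GDF11 mean 17.8-fold above that of serum-free medium. The serum-free signal stood close to background, with detection p-values of 0.0226, 0.0489, 0 and 0, so the fold depends on how background is treated.

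The other Lmcd1 probes showed the same order of the groups with smaller differences. ILMN_1247343 gave raw signals of 576, 528, 565 and 565 with TGFB1, 214, 401, 482 and 393 with GDF11, and 81.7, 86.1, 101 and 90.2 in serum-free medium, where it was detected on 3 of 4 arrays. Its normalized means were 13.2-fold and 10.7-fold above serum-free medium for TGFB1 and GDF11. ILMN_2628940 gave 267, 221, 242 and 266 with TGFB1, 149, 225, 198 and 200.4 with GDF11, and 80.6, 85.8, 90.5 and 82.8 in serum-free medium, where it was detected on none. On the normalized scale it was at least 5.48-fold higher with TGFB1 and at least 5.10-fold higher with GDF11. The floor was the lowest detected signal of each serum-free array, or the probe's own signal where that was higher. These bounds hold on that scale alone, because the fold depends on how background is treated. On each of the 3 probes the ligand arrays and the serum-free arrays did not overlap.

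**Figure D1:**
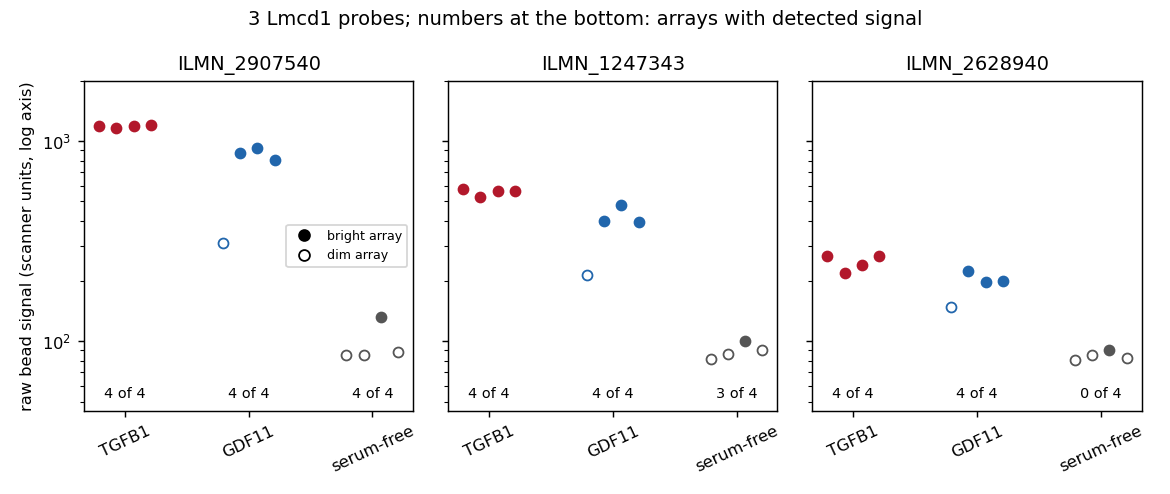
Raw bead signal (scanner units, log axis) of the 3 Lmcd1 probes on the 4 arrays of each group, TGFB1 left, GDF11 middle and serum-free right; filled points are bright arrays and open points dim ones. Serum-free signals sit between 80.6 and 132 on all 3 probes, and the numbers at the bottom count the arrays with detected signal.

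Mab21l4 had the brightest raw signal of the 5 genes in each group. It read 3935, 3956, 4104 and 3379 scanner units with TGFB1, 911, 1412, 2075 and 1581 with GDF11, and 171, 189, 331 and 222 in serum-free medium. The 3 groups did not overlap one another, and the gene was detected on all 12 arrays. Normalized means were 11.50 ± 0.08 with TGFB1, 10.48 ± 0.25 with GDF11 and 7.98 ± 0.24 in serum-free medium (SD, n = 4 each), which is 11.4-fold above serum-free medium for TGFB1 and 5.66-fold for GDF11. Its serum-free level stood further above the detection limit than that of Lmcd1, with a normalized mean of 7.98 against 5.14.

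Fam210b read 902, 1098, 927 and 832 scanner units with TGFB1, 325, 796, 883 and 832 with GDF11, and 124, 133, 267 and 126 in serum-free medium. The TGFB1 and GDF11 arrays overlapped, and both lay above every serum-free array. On the log2 scale the means were 9.35 ± 0.14 with TGFB1, 9.27 ± 0.17 with GDF11 and 7.13 ± 0.14 in serum-free medium, or 4.65-fold and 4.39-fold above serum-free medium. Dram1 read 471, 514, 510.0 and 454 with TGFB1, 273, 382, 441 and 339 with GDF11, and 98.3, 115, 132 and 101 in serum-free medium. Its normalized means were 8.30 ± 0.08, 8.21 ± 0.40 and 6.14 ± 0.40 in the same order, 4.47-fold above serum-free medium with TGFB1 and 4.20-fold with GDF11. After normalization the TGFB1 and GDF11 arrays of Dram1 overlapped, with GDF11 replicate 1 at 8.81 and the other GDF11 arrays between 7.99 and 8.06.

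Arid3a was the dimmest of the 5 in raw signal with either ligand among the probes used for testing. It read 289, 325, 291 and 291 scanner units with TGFB1, 107, 250.0, 260.1 and 204 with GDF11, and 78.2, 90.7, 110 and 83.5 in serum-free medium. The raw GDF11 and serum-free values overlapped, since the dim GDF11 replicate 1 read below the bright serum-free replicate 3, while the normalized values did not. Arid3a was detected on 2 of the 4 serum-free arrays, with detection p-values of 0.665 and 0.102 on the other two, and on every ligand array. The normalized means were 7.43 ± 0.10 with TGFB1, 6.94 ± 0.26 with GDF11 and 4.77 ± 0.53 in serum-free medium (SD, n = 4 each), a 6.28-fold and a 4.48-fold difference from serum-free medium whose size is uncertain for that reason. Across all 7 probes and 12 arrays the standard error over beads was 2.21% to 6.74% of the signal, from 20 to 57 beads.

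**Figure D2:**
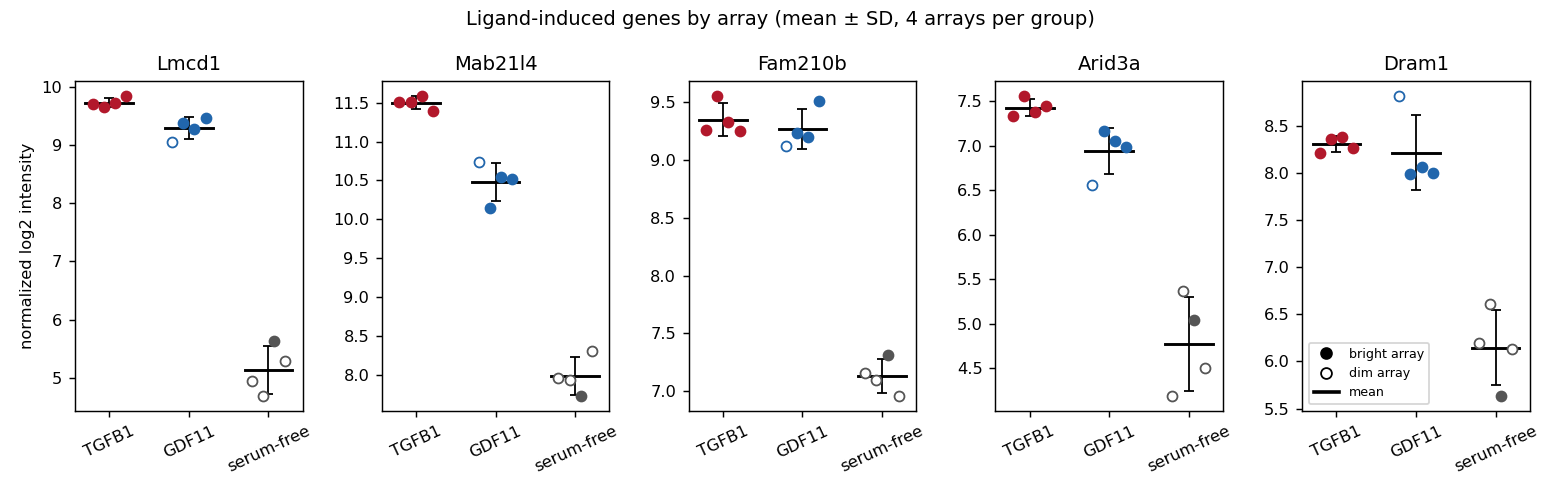
Normalized log2 intensity of the 5 genes on the 4 arrays of each group, TGFB1 left, GDF11 middle and serum-free right; lines and bars are the mean and SD, and open points are dim arrays. On the probes used for testing, the TGFB1 points of Lmcd1, Mab21l4 and Arid3a lie above all GDF11 points, while those of Fam210b and Dram1 overlap them.

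TGFB1 was compared directly with GDF11 to see where the ligands differ at these doses. Mab21l4 was higher with TGFB1 than with GDF11 by 1.02 ± 0.15 on the log2 scale (SE, 2.02-fold, 95% interval 0.69 to 1.34, limma adjusted p = 0.00556), with all 4 TGFB1 arrays above all 4 GDF11 arrays. It was the 1 gene of the 5 that passed, in a comparison in which limma called 0.832% of all genes 0.438% as higher and 0.394% as lower. Lmcd1 differed by 0.44 ± 0.18 (95% interval 0.06 to 0.82, adjusted p = 0.467) and Arid3a by 0.49 ± 0.22 (0.02 to 0.96, adjusted p = 0.542), and neither passed over all genes. On the probes used for testing, the TGFB1 and GDF11 arrays of both genes did not overlap. In a fit over all probes, which called 0.631%, the other Lmcd1 probes differed by 0.30 (ILMN_1247343, adjusted p = 0.751) and 0.10 (ILMN_2628940, adjusted p = 0.9). On ILMN_2628940 the TGFB1 and GDF11 arrays overlapped, with GDF11 replicate 1 at 7.56 and the TGFB1 arrays between 6.83 and 7.28. On the probes used for testing, 3 of the 5 genes had every TGFB1 array above every GDF11 array, as did 4.99% of all genes. Because the genes were chosen as high under both ligands, that share is a description of them.

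Fam210b and Dram1 showed no detectable difference between the ligands. The difference was 0.08 for Fam210b, with a 95% interval of −0.19 to 0.36 (limma adjusted p = 0.864). For Dram1 it was 0.09, with an interval of −0.37 to 0.54 (adjusted p = 0.913). These intervals leave room for a difference of up to 1.28-fold for Fam210b and 1.46-fold for Dram1, so they do not show that the ligands act alike. The median over the 5 genes was 0.44, against −0.01 over all genes. This is a description, because the 5 genes were chosen for large rises with both ligands and most other genes were not.

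Dim and bright arrays were spread unevenly over the groups. The same comparison was therefore run with a term for brightness, and on the 7 bright ligand arrays with the bright serum-free array. Mab21l4 stood at 1.10 ± 0.12 with the term (limma adjusted p = 0.000329, where 2.51% of genes were called) and at 1.10 ± 0.11 on bright arrays. Lmcd1 and Arid3a both stood at 0.36 ± 0.09 on bright arrays alone. That fit has 1 serum-free array, so differences alone are given for these genes. Neither passed with the term (0.31, limma adjusted p = 0.264, and 0.38, adjusted p = 0.433). Dram1 stood at 0.29 on bright arrays, which is likewise given without a call, and did not pass with the term (0.27, limma adjusted p = 0.267). Fam210b stood at 0.03 in both.

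**Figure D3:**
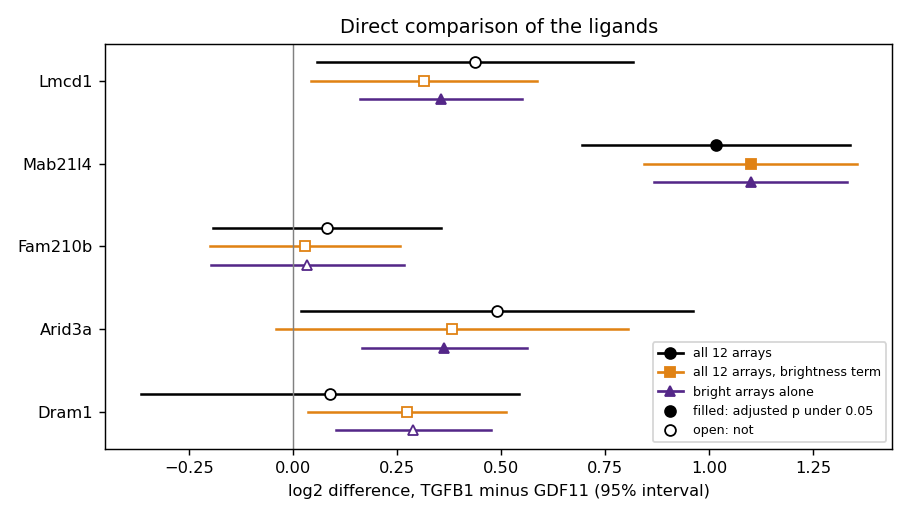
Log2 difference between TGFB1 and GDF11 for the 5 genes, with 95% intervals, over all 12 arrays (circles), with a term for brightness (squares) and on bright arrays alone (triangles); filled symbols passed an adjusted p under 0.05. Mab21l4 stands near 1 in all 3 fits and Fam210b near 0. The bright arrays hold 1 serum-free array, so the fill of the triangles is not read as a call.

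The 5 genes did not shift one way between dim and bright arrays. With the groups in the model, Lmcd1 was higher on bright than on dim arrays by 0.49 ± 0.14 on the log2 scale (SE, limma adjusted p = 0.0109). Dram1 (−0.74 ± 0.12, adjusted p = 0.000302) and Mab21l4 (−0.33 ± 0.13, adjusted p = 0.049) were lower on bright arrays. Arid3a (0.43, adjusted p = 0.12) and Fam210b (0.22, adjusted p = 0.143) did not pass, and over all genes 49.2% were called in this comparison. The Lmcd1 probes went apart: in a fit over all 12680 probes, in which 45.8% were called, ILMN_2907540 was higher on bright arrays (0.49, adjusted p = 0.0128), ILMN_2628940 lower (−0.48, adjusted p = 0.041), and ILMN_1247343 did not pass (−0.15, adjusted p = 0.565). The brightness shift of Lmcd1 therefore depends on the probe.

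The differences from serum-free medium were also read among dim arrays and among bright arrays, where brightness did not separate the groups. On dim arrays, GDF11 replicate 1 stood above the mean of 3 serum-free arrays by 4.07 on the log2 scale for Lmcd1, 2.67 for Mab21l4, 2.50 for Dram1, 2.05 for Fam210b and 1.87 for Arid3a. On bright arrays the mean of 3 GDF11 arrays stood above serum-free replicate 3 by 3.75, 2.67, 2.38, 2.00 and 2.02 for the same genes. The 4 TGFB1 arrays stood above that bright serum-free array by 4.10, 3.77, 2.67, 2.04 and 2.39. A single array stands on 1 side of each of these differences, so they carry no error.

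How large the rises are depends on the scale, most of all for Lmcd1 and Arid3a. For Lmcd1 the log2 difference from serum-free medium was 4.59 with TGFB1 and 4.15 with GDF11 in the neqc values used above, 3.02 and 2.62 with no background correction, and 2.78 and 2.35 in the authors' deposited processed values. For Arid3a these pairs were 2.65 and 2.16, 1.25 and 0.94, and 1.08 and 0.76. Mab21l4, with its higher serum-free level, ran from 3.52 and 2.50 to 3.15 and 2.16. All of these are differences of log2 levels between group means. The TGFB1 and GDF11 arrays lay above the serum-free arrays without overlap for all 5 genes, which was so for 15.2% of genes with TGFB1 and 5.3% with GDF11. This follows from how the genes were chosen.

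The place of Lmcd1 and Mab21l4 among all genes moved little, and that of the other 3 genes moved more. Lmcd1 had the largest log2 difference of all genes tested for GDF11 against serum-free medium in each of the 12 settings that left out no single array, from neqc to the authors' values. For TGFB1 it ranked 1 to 3, and Mab21l4 ranked 1 to 4 for TGFB1 and 3 to 5 for GDF11. Fam210b ranked 21 to 36 for TGFB1 and 5 to 10 for GDF11. Dram1 ranked 12 to 55 for TGFB1 and 5 to 21 for GDF11, and Arid3a ranked 13 to 115 and 8 to 101.

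**Figure D4:**
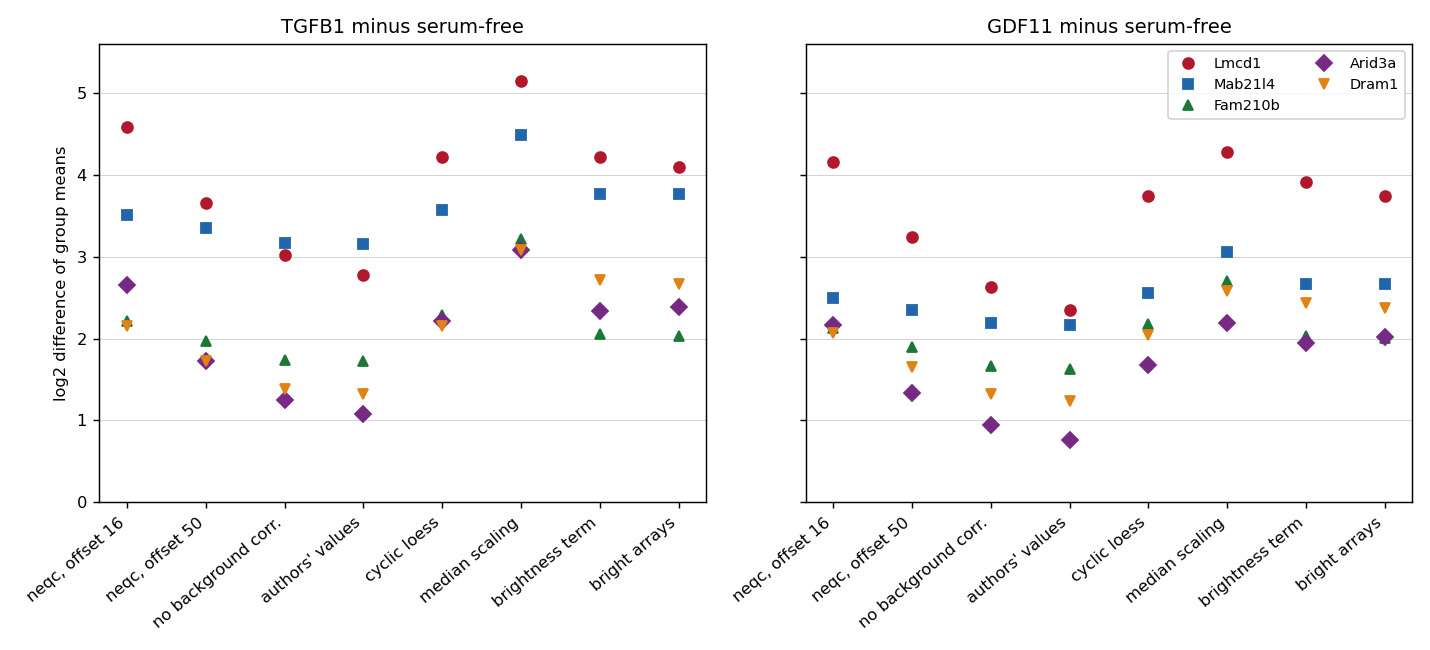
Log2 difference of group means for the 5 genes under 8 ways of processing the arrays, TGFB1 minus serum-free medium on the left and GDF11 minus serum-free medium on the right. Lmcd1 spans 2.78 to 5.15 with TGFB1 and 2.35 to 4.28 with GDF11, and every value is above 0.

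The genes with the most similar profiles were found by the root-mean-square difference between log2 values over the 12 arrays, each gene centred on its own mean. This measure follows the size of a change as well as its shape, and the arrays share the ligand groups and brightness. Nearest to Lmcd1 were Cldn4, a tight junction gene (0.67), Mab21l4 (0.76), Rhob, a small GTPase gene (0.81), the cytokine gene Il11 (0.82) and Spsb1, which encodes a ubiquitin ligase adaptor (0.85). Nearest to Mab21l4 were Cldn4 (0.26), Ass1, the gene of argininosuccinate synthase (0.33), and Spsb1 (0.33). Their differences between TGFB1 and GDF11 were 1.12, 1.36 and 0.58 on the log2 scale, which the choice by profile already includes. Cldn4 was detected on none of the serum-free arrays.

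Fam210b lay nearest to Ddit4, an inhibitor of mTORC1 signalling (0.18), the growth factor gene Pdgfb (0.24) and Gadd45a, a stress response gene (0.24). The differences between TGFB1 and GDF11 for these 3 were 0.28, 0.29 and 0.26, which is again part of the choice. Arid3a lay nearest to Spsb1 (0.25), Bhlhe40, a transcriptional repressor of the clock (0.27), and Plek2, a pleckstrin relative (0.28). Dram1 lay nearest to Pdgfb (0.22), the matricellular gene Ccn4 (0.28) and Dusp2, a MAP kinase phosphatase gene (0.29) not detected in serum-free medium. Among the 5 genes themselves, Fam210b and Arid3a were closest (0.35) and Lmcd1 and Dram1 farthest apart (1.18).

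Family relatives of Mab21l4 and Dram1 showed smaller changes than these genes, which were themselves chosen for large rises. None of the 6 tested genes of the MAB21 family passed with GDF11, and 1 rose with TGFB1, the membrane protein gene Itprip (0.59 on the log2 scale, limma adjusted p = 0.0147). With the brightness term Itprip rose with GDF11 as well (0.56, adjusted p = 0.0357). The DNA sensor gene Cgas (−0.11 with TGFB1 and −0.18 with GDF11), Mb21d2 (0.02 and −0.03), Tmem102 (0.23 and 0.08) and the mitochondrial fission genes Mief1 (0.11 and 0.15) and Mief2 (0.44 and 0.03) did not pass. Mab21l1, Mab21l2, Mab21l3, Itpripl1 and Itpripl2 were not tested. Dram2, the closest relative of Dram1 by name, did not pass either (−0.27 and −0.06), and Tmem150a passed with TGFB1 (0.74, adjusted p = 0.0405) but stood at 0.08 with the brightness term (adjusted p = 0.847). Over all genes limma called 34.4% with TGFB1 (15.7% higher and 18.7% lower) and 9.93% with GDF11 (4.78% higher and 5.15% lower). With the brightness term it called 15.9% and 10.4%, and every contrast with serum-free medium shares the same 4 control arrays.

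Listed genes with LIM or PET domains, the domains of Lmcd1, moved both ways. The list also holds Ldb1, which encodes a LIM-binding protein without these domains. Of 28 tested, 6 rose and 5 fell with TGFB1 (median 0.09 on the log2 scale, against −0.01 over all genes). With GDF11 3 rose and 1 fell (median −0.01, against −0.02). Over all genes 15.7% rose and 18.7% fell with TGFB1, and 4.78% and 5.15% with GDF11. The focal adhesion adaptor gene Lims2 rose with both ligands (1.17 and 0.97, limma adjusted p = 0.00051 and 0.0052), as did Pdlim7, which encodes a cytoskeletal scaffold (0.78 and 0.78). Lmo2, a LIM-only cofactor gene of blood development, rose with TGFB1 (1.02, adjusted p = 0.00303) and GDF11 (1.06, adjusted p = 0.00609). Paxillin, encoded by Pxn, rose with TGFB1 (0.96). Fhl1 fell with both (−1.41 and −1.09), while Lmo4 (−0.58, adjusted p = 0.0161) and Lima1, which encodes an actin crosslinker (−0.66, adjusted p = 0.0217), were lower with TGFB1 than with GDF11. With the brightness term 6 rose and 6 fell with TGFB1, and 4 rose and 2 fell with GDF11. With that term Zyx rose with both ligands (1.11 and 0.66) and Prickle1 fell with both (−0.56 and −0.51). Zyx was then also higher with TGFB1 than with GDF11 (0.45, limma adjusted p = 0.0155). Of the 38 genes listed, 10 were not tested.

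Among 10 tested GATA, calcineurin and NFAT genes, the setting in which Lmcd1 is known, none passed with GDF11, where 9.93% of all genes did. With TGFB1, where 18.7% of all genes fell, 2 genes of the list fell. These were Gata6 (−0.67, limma adjusted p = 0.00209), which encodes the factor that Lmcd1 restrains in mouse, and the calcineurin inhibitor gene Rcan1 (−0.59, adjusted p = 0.00362). With the brightness term Gata6 fell with TGFB1 (−0.87, adjusted p = 0.000359) and also with GDF11 (−0.45, adjusted p = 0.0206). With the term 2 genes of the list also rose with TGFB1, the calcineurin subunit gene Ppp3ca (0.52, adjusted p = 0.00599) and Nfat5 (0.46, adjusted p = 0.013). The median of the list was −0.31 with TGFB1 and −0.31 with GDF11, and with the term it was 0.11 and 0.00.

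Of 6 tested relatives of Arid3a, the H3K4 demethylase gene Kdm5b rose (0.54 with TGFB1 and 0.65 with GDF11) and Arid5b fell (−1.42 and −0.93). Kdm5b was detected on 2 of 4 serum-free arrays, so the size of its rise is uncertain. The Kdm5b calls ended with the brightness term (limma adjusted p = 0.154 and 0.0514), as did the GDF11 call of Arid5b (adjusted p = 0.0545). The partner gene E2f1 fell with TGFB1 (−0.95, adjusted p = 0.00108) and GDF11 (−0.66, adjusted p = 0.0245), and with the term by −0.52 and −0.38. Of 10 tested E2F and RB genes, 2 rose and 3 fell with TGFB1, and 1 fell with GDF11. Over all genes 15.7% rose and 18.7% fell with TGFB1, and 4.78% and 5.15% with GDF11. The other calls with TGFB1 were E2f2 (−1.17), detected on 1 of 4 TGFB1 arrays, Tfdp1 (−0.52), Tfdp2 (0.77) and E2f4 (0.64), and the last 3 did not pass with the term. With the term E2f3 rose (0.55, limma adjusted p = 0.0413) and Rbl1 fell (−0.72, adjusted p = 0.0432) with TGFB1.

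The p53 targets, among which Dram1 is known in human cells, went both ways. Of 29 tested, 6 rose and 7 fell with TGFB1 (median −0.11) and 3 rose and 3 fell with GDF11 (median −0.09). Over all genes 15.7% rose and 18.7% fell with TGFB1, and 4.78% and 5.15% with GDF11. Ddit4 rose by 2.12 with TGFB1 and 1.84 with GDF11 (limma adjusted p = 1.91e-07 and 1.93e-06) and the cell cycle inhibitor gene Cdkn1a by 0.56 and 0.47. Gdf15, a stress-induced ligand gene, fell by 1.58 and 0.87, the death receptor gene Fas by 1.34 and 0.99, and Bbc3, a pro-apoptotic gene, by 1.03 and 0.88. Phlda3 rose with both ligands (0.82 and 0.80) and Plk2 with TGFB1 (0.86), but neither passed with the brightness term. With the term the counts were 3 and 4 for TGFB1 and 2 and 3 for GDF11.

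Of 31 tested autophagy and lysosome genes, the process in which Dram1 acts, none rose and 1 fell with GDF11, where 4.78% of all genes rose and 5.15% fell. The gene that fell was Gabarapl1, an LC3 relative (−0.61, limma adjusted p = 0.0092), which also fell with TGFB1 (−0.98). With TGFB1 7 rose and 4 fell, where 15.7% of all genes rose and 18.7% fell. With the brightness term 2 of the list rose and 1 fell with TGFB1. With the term Sqstm1, an autophagy receptor gene, rose with GDF11 (0.41, adjusted p = 0.0355). Map1lc3b (1.87), Ctsd (1.12) and Vmp1 (0.64) passed with TGFB1 but not with the term (0.11, 0.36 and 0.21, limma adjusted p 0.369 to 0.793). Ctsd was detected on 1 of 4 serum-free arrays. Uvrag (−0.59, and −0.33 with the term) and Atg10 (−0.68, and −0.07 with the term) also passed with TGFB1 but not with the term. Of 18 tested genes of haem synthesis and mitochondrial iron, the setting in which Fam210b is known, none passed with GDF11. With TGFB1 2 rose and 5 fell, beside the same shares of 15.7% and 18.7% over all genes. Slc25a37, the mitochondrial iron importer gene, rose with TGFB1 (0.60, and 0.84 with the term). With the term it also passed with GDF11 (0.38, adjusted p = 0.0493) and for TGFB1 against GDF11 (0.45, adjusted p = 0.0325). Cpox (0.75), Tfrc (−0.64), Iscu (−0.58) and Slc25a38 (−0.73) passed with TGFB1 but not with the term. Cpox was detected on 1 of 4 serum-free arrays. Alad fell with TGFB1 with the term alone (−0.47, limma adjusted p = 0.01015).

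**Figure D5:**
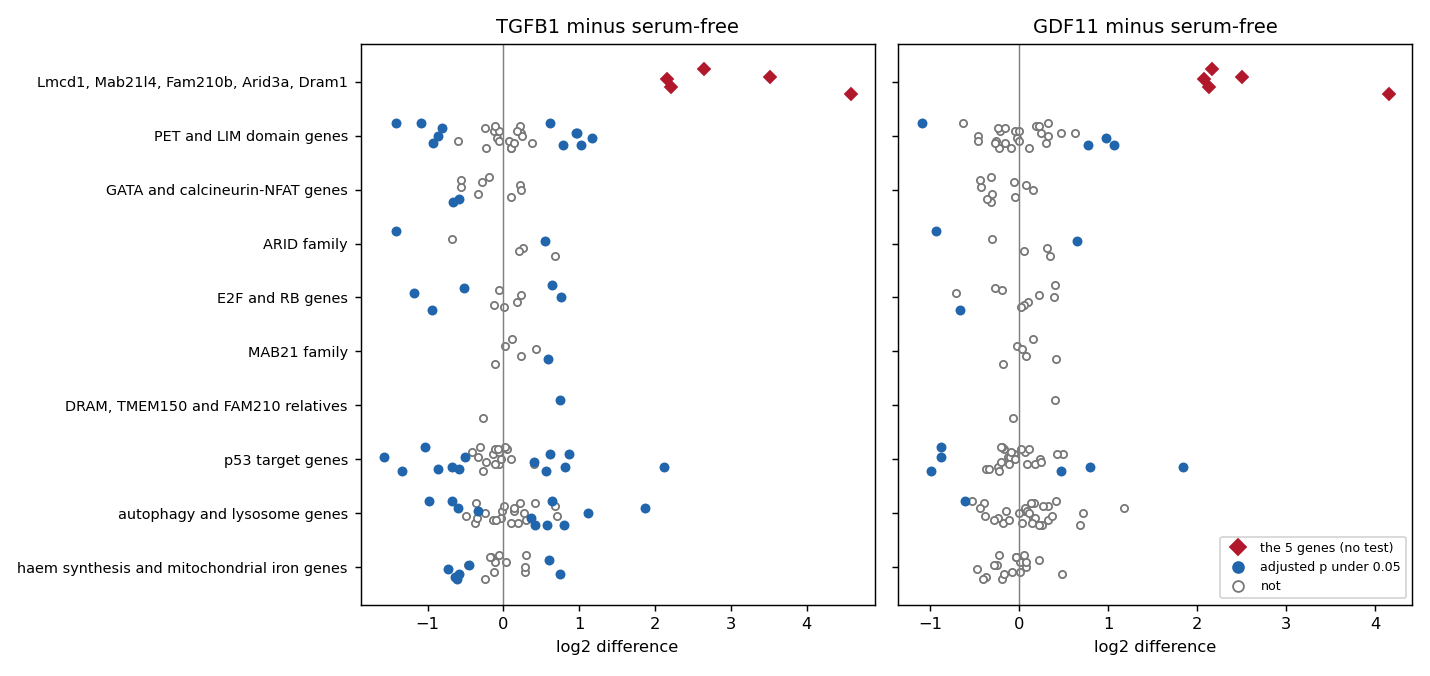
Log2 difference from serum-free medium for the 5 genes (diamonds, no test) and for tested genes of 9 related lists (circles, filled where limma's adjusted p was under 0.05), TGFB1 on the left and GDF11 on the right. The 5 genes stand at 2.16 to 4.59 with TGFB1 and 2.07 to 4.15 with GDF11, and the listed genes reach at most 2.12 and 1.84. This gap follows from how the 5 genes were chosen.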

How the data were processed

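The deposited non-normalized table gives, per the file headers, a mean bead signal per probe, which is an intensity on a linear scale without background subtraction. Per the file headers it also gives a detection p-value, the bead number (another measure) and the standard error over beads as an intensity. The authors' deposited processed values are log2-like, and the submitters' processing notes name lumi with no role; the sources used here do not state the transformation or its base. In R 4.3.3 with limma 3.58.1, intensities were background-corrected, given an offset of 16, quantile normalized and log2-transformed with neqc. A probe entered the fit when 4 or more of the 12 arrays gave it a detection p below 0.05 (12680 probes), and the probe with the highest mean stood for a gene. All 12 arrays were fitted with 1 mean per group (lmFit, eBayes), adjusted by Benjamini-Hochberg over 9134 genes, with calls under 0.05. The fit was also run on simulated data without dim and bright arrays, so that run cannot speak to brightness. The 95% intervals of differences are not adjusted. Symbols were updated through RefSeq: 14307 were current, 2906 matched by synonym, 904 were kept, and 31 probes had date-like names. Beyond the 5 genes, named genes were, per list and comparison, up to 3 called genes with the smallest p in each direction, all tested MAB21 and DRAM relatives, the nearest profiles (5 for Lmcd1, 3 for each other gene) and Krt8, Krt18, Cdh1 and Epcam. Named outside that rule after their values were seen were Acta2, Zyx, Ldb1, genes called with the brightness term alone (Sqstm1, Ppp3ca, Nfat5, E2f3, Rbl1, Alad, Prickle1) and genes given as never detected or not tested. Dim and bright arrays were divided where mean raw intensity had its largest gap. The 5 genes, the lists, the brightness fits and the tests were chosen with earlier results of these data known. The numbering of replicates was not read as pairing: deviations matched the same number best on 4 of 12 arrays. Protein sequences were not used here. Alternatives covered background correction, offset, scaling, the authors' values, filters, the probe rule, a replicate block, brightness and leaving out each array. With 4 arrays per group, their number limits the precision, and p-values measure the spread between replicates of 1 line.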

Additional observations from a re-analysis of the deposited data

Results flagged for a closer look

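Dram1 had 1 array apart from its group. On GDF11 replicate 1, a dim array, its normalized log2 intensity was 8.81, while the other GDF11 arrays stood at 7.99 to 8.06, and the gap took 0.916 of the group's range, above Dixon's 95% critical value for 4 samples. Of 21 groups of 4 examined over the 7 probes, 1 had such an array, and chance gives about 1 in 20. Without GDF11 replicate 1 the difference of TGFB1 from GDF11 for Dram1 was 0.29 (limma adjusted p = 0.821), against 0.09 with it.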

How the results depend on the processing

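Mab21l4 kept its call for TGFB1 against GDF11 under all 23 alternatives, at 0.98 to 1.42 on the log2 scale with all arrays or bright arrays and 0.90 to 1.10 without 1 array (limma adjusted p up to 0.0366). With the replicate block its adjusted p was 0.0187, and the block changed no call for the other 4 genes. Lmcd1 passed with the authors' processed values (0.42, limma adjusted p = 0.0309), and on bright arrays alone Lmcd1 and Arid3a both stood at 0.36. Fam210b and Dram1 passed nowhere, and no difference from serum-free medium of the 5 genes changed sign. Differences from serum-free medium left 1 SD in 45 of 230 values. The number of genes called for TGFB1 against GDF11 was 76 (808 at an unadjusted p under 0.05). It was 32 with median scaling, 128 with cyclic loess, 229 with the brightness term, 536 on bright arrays alone and 57 with the replicate block. Without 1 array it was 20 to 107, and it fell below 40 without GDF11 2 or 3 or any TGFB1 array (34, 30, 31, 24, 20 and 31). For GDF11 against serum-free medium the count was 907, with 190 under median scaling, 563 on bright arrays and 445 to 3368 without 1 array. It was 3368 without GDF11 1 and 2842 without serum-free 3, but leaving out GDF11 2, 3 or 4 gave 515, 504 and 445, and leaving out a dim serum-free array (1, 2, 4) gave 558, 504 and 504. For TGFB1 against serum-free medium it was 3140, with 1448 under the brightness term, 1558 on bright arrays and 2035 to 4467 without 1 array (2036 and 2035 without serum-free 1 or 2). Median scaling moved the median of all genes by 0.30, 0.40 and 0.70 in these comparisons and turned the split of higher and lower calls to 31 and 1, 176 and 14, and 4178 and 107, against 40 and 36, 437 and 470, and 1436 and 1704. The authors' values gave 79 and 30 for TGFB1 against GDF11. The cause of these moves was not tested.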
